A study of Mus musculus with 7 samples.

Results

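The potassium channel genes are the 94 protein-coding genes of the RefSeq mouse gene table, of 21887 on chromosomes that carry domains, whose symbol begins with Kcn. Each was placed against the 1437 lamin-associated domains (LADs) mapped in mouse embryonic fibroblasts named iMEF. LADs are stretches of chromatin that touch the lamina, a protein mesh lining the inside of the nuclear envelope, and they were found by CUT&RUN, in which an antibody recruits a nuclease that cuts out the DNA around its target. Of the 7 libraries, 2 were made with a Lamin B1 antibody, on whole cells, and 2 with IgG as the control. The remaining ones profile the histone marks H3K9me2 (2) and H3K14ac (1) in nuclei. The cells are described as lines derived independently from a single mouse colony, with the same line name for every library, so which line gave which library is not known here. They received no treatment named in the labels. The list used here is called wild type and merged only in its name. It was read as the result of both Lamin B1 libraries, and no library was analysed here by itself. The read depth behind a domain is therefore unknown, no placement has a replicate error, and no test was run. The list holds positions, not RNA levels, so neither the cell type nor the activity of any channel gene could be checked with it.

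Potassium channels are membrane proteins that let potassium ions leave or enter the cell and so set the resting voltage and end electrical impulses. The voltage-gated (Kv) channels open on depolarisation, the calcium-activated (KCa) channels and their Slo relatives respond to ions inside the cell, the inward rectifiers (Kir) pass current best near rest, and the tandem-pore (K2P) channels carry leak current. Auxiliary subunits bind the pore-forming proteins and change their gating or traffic. Many of these genes are known for their use in neurons and muscle, and LADs are known in general to hold genes that are little used in the cell studied.

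A gene was counted as inside when its midpoint lay in a LAD. Of the 94 genes, 90 had their midpoint between the first and the last domain of their chromosome, and 32 of these (35.6%) lay in a LAD. Over all 21130 protein-coding genes placed in the same way the share was 24.6%, and without olfactory and vomeronasal receptor genes it was 19.8%. The other 4 genes, Kcnk4, Kcnk7, Kcnk18 and Kcnq1, lay beyond the first or last domain of their chromosome, outside LADs. The 32 genes were spread over 28 domains. No test of the share was run, and the counts below are descriptions.

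The 58 genes outside had a median distance of 1306 kb from the nearest border, against 759.6 kb for all protein-coding genes outside. Over 1 Mb away lay 33 of the 90 genes, where the share over all genes was 31.6%, and within 50 kb lay 2, Kcna10 and Kcnk9 (all genes, 4.73%). The 32 genes inside had a median depth, the distance from the midpoint to the nearest border, of 229.8 kb, against 307.7 kb for all genes inside and 247.5 kb without olfactory and vomeronasal receptor genes. Depths over 500 kb were found for 7 of the 90 genes, where the share over all genes was 8.98%. Of these 7, 3 were over 1 Mb deep. At the other end, 6 of the 90 genes were inside and within 50 kb of a border, where the share over all genes was 3.33%. A LAD covered the whole of 24 genes (all genes, 22.5%) and at least a part of 34 (all genes, 26.0%), which leaves 56 untouched.

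**Figure D1:**
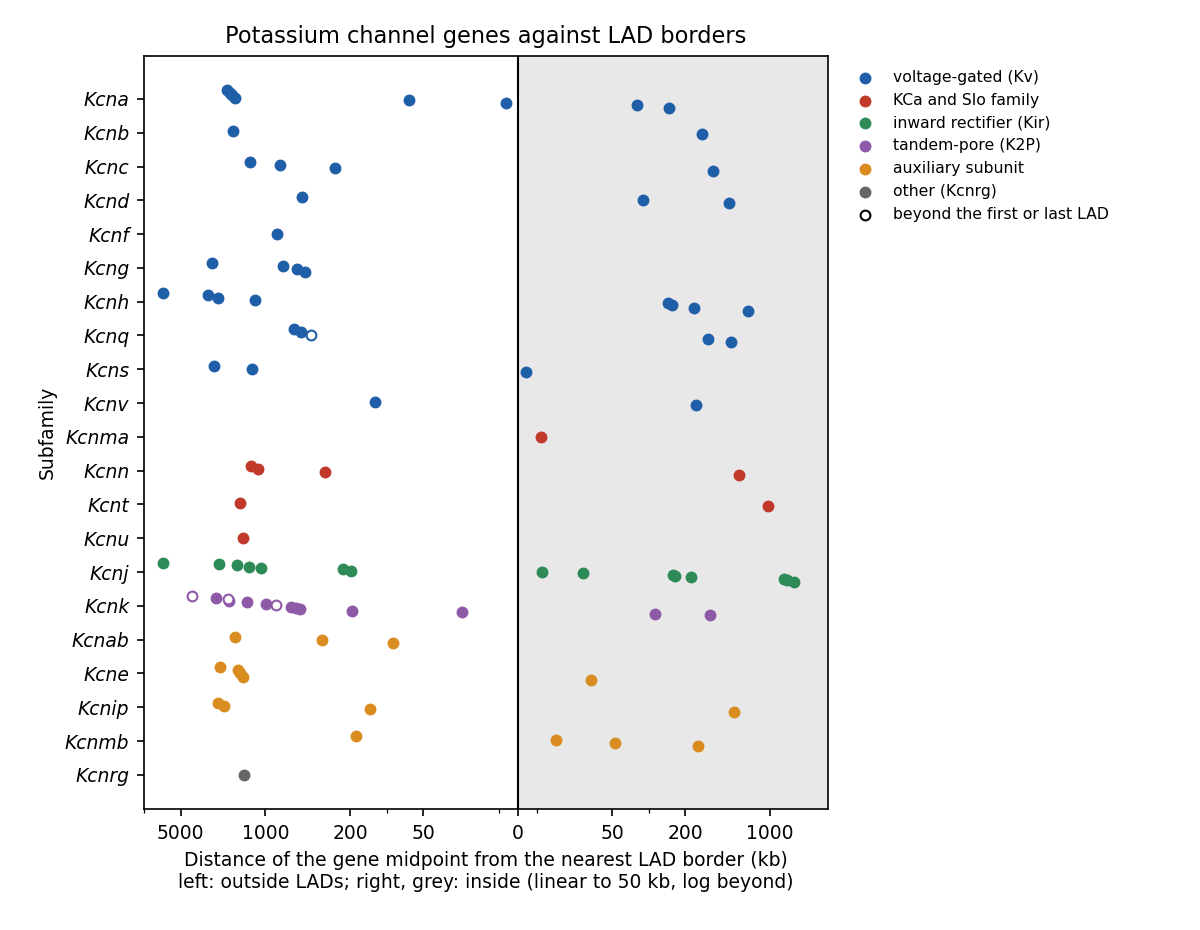
Distance of the midpoint of each of the 94 potassium channel genes from the nearest LAD border, in kb, by subfamily. The axis is linear to 50 kb and logarithmic beyond, points on the grey side lie inside LADs, colours mark the functional class, and open points are the 4 genes beyond the first or last LAD. Of 21 subfamilies, 15 have members on both sides.

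Long potassium channel genes lay mostly inside LADs and shorter ones mostly outside. Of the 22 potassium channel genes over 100 kb, 19 (86.4%) lay in a LAD, where the share over all 2382 protein-coding genes of that length was 34.4%. Of the 35 genes of 20 to 100 kb, 7 lay inside (20%; all genes, 16.8%), and of the 33 genes under 20 kb, 6 did (18.2%; all genes, 27.7%). For both shorter classes together the count was 13 of 68 (19.1%), near the 23.4% of all genes up to 100 kb. Without olfactory and vomeronasal receptor genes, the share of all genes under 20 kb was 19.2%, near that of the potassium channel genes. The median length was 195.6 kb inside and 22.3 kb outside. Over all protein-coding genes the medians were 10.2 kb inside and 19.0 kb outside, and without olfactory and vomeronasal receptor genes they were 20.7 and 19.3 kb. The long potassium channel genes were longer than most long genes, with a median of 342.5 kb against 172.6 kb. With the limit raised to 200 kb, 15 of 17 potassium channel genes (88.2%) lay inside, and the share over all 976 genes was 50.5%.

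**Figure D2:**
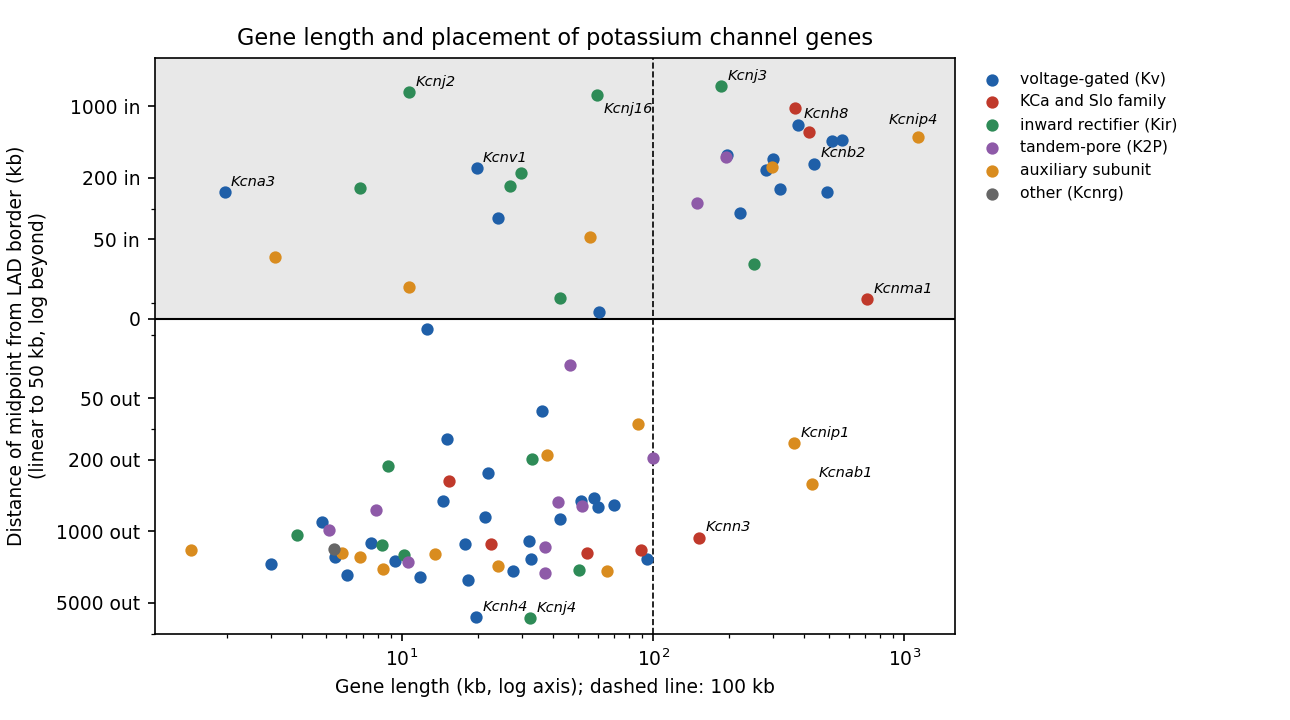
Length of 90 potassium channel genes (kb, log axis) against the distance of their midpoint from the nearest LAD border (kb, linear to 50 kb and logarithmic beyond), with colours for the class. To the right of the dashed line at 100 kb, 19 of 22 genes lie inside LADs, in the grey area.

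The 3 genes over 100 kb outside LADs were Kcnab1, Kcnip1 and Kcnn3. Kcnab1 encodes a cytosolic beta subunit of the Kcna channels, measures 429 kb and lay 340.3 kb from the nearest border. Kcnip1, a calcium-binding partner of the Kcnd channels, measures 364 kb and had its midpoint 136.7 kb outside. Kcnn3, a small-conductance calcium-activated channel of 152.3 kb, lay 1152 kb outside. Kcnq1, beyond the last LAD of its chromosome and not counted here, measures 320.2 kb. On either side of the 100 kb limit stood a pair of K2P genes, Kcnk13 with 99.5 kb outside and Kcnk10 with 148.8 kb inside.

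Other gene families of electrical signalling, like all genes, had their highest share in the class over 100 kb. Glutamate and GABA receptor genes, the main excitatory and inhibitory receptors of the brain, lay inside in 28 of 47 cases (59.6%; all genes, 24.6%), and in 22 of 26 (84.6%; all genes, 34.4%) when over 100 kb. For voltage-gated sodium and calcium channel genes the counts were 12 of 37 (32.4%) and 9 of 20 (45.0%). Of those over 200 kb, 4 of 8 lay inside, as did 50.5% of all genes of that length. Differences between these groups were not tested.

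**Figure D3:**
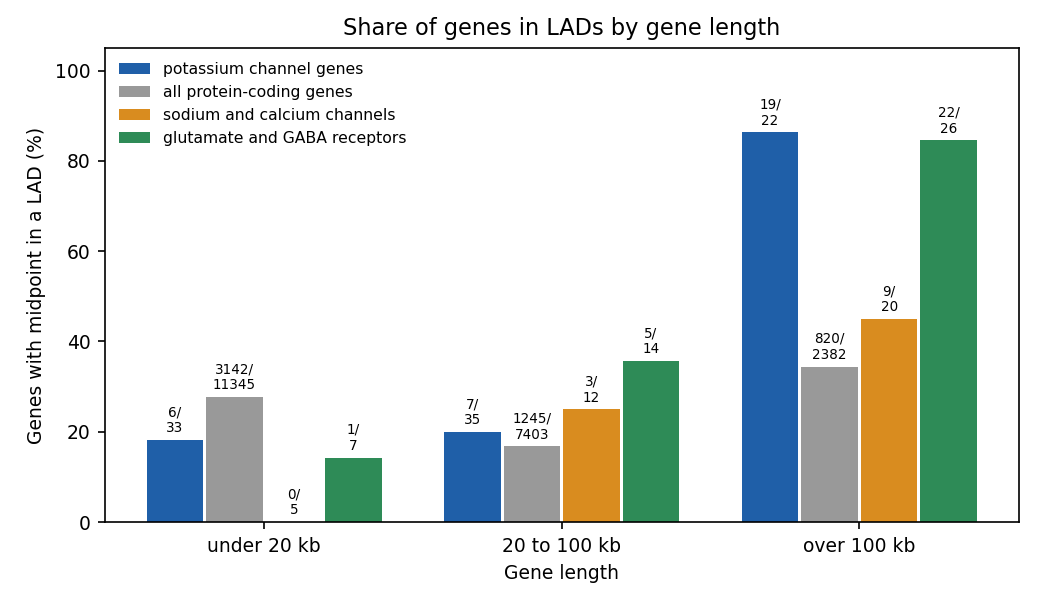
Share of genes with their midpoint in a LAD (%), by gene length, for potassium channel genes, all protein-coding genes, voltage-gated sodium and calcium channels, and glutamate and GABA receptors. Bars start at 0 and the numbers above them give genes inside over genes placed. In the class over 100 kb, potassium channels stand at 86.4% and all genes at 34.4%.

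Within subfamilies, whose members descend from a common gene and encode similar proteins, the longer gene was mostly the one at the lamina. Among the 90 genes placed, 15 subfamilies had members on both sides. Of these, the longest member lay inside in 13, and in 11 every member inside was longer than every member outside. Kcnq1, not placed, goes against the second count: it is longer than Kcnq3, and with it the count is 10. The exceptions to the first count were Kcna and Kcne. Among placed genes, those to the second were Kcna, Kcne, Kcnj and Kcnmb. Of the other 6 subfamilies, Kcnab, Kcnf, Kcng, Kcnu and Kcnrg had no member inside, and the single Kcnma gene lay inside.

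RefSeq promoter windows (GRCm38.p6, the build also called mm10; 250 bases before to 50 after the start site) matched 69 of the 94 genes, of which 66 lay between the first and last domain, and the most upstream window of each gene was used. CpG content was measured as the number observed over the number that the C and G content would give. Its median was 0.49 in the 28 potassium channel genes with their midpoint inside (range 0.0548 to 1.04). With the midpoint outside, it was 0.44 in 38 genes (range 0 to 0.996), so the ranges overlapped almost wholly. Some start sites lay on the other side from the midpoint. Those of Kcnh1 (ratio 0.83), Kcnma1 (0.79) and Kcns3 (0.54) were outside, and those of Kcna10 (0) and Kcnip1 (0.32) inside. Split by start site instead, the order of the medians reverses. Over all protein-coding genes the medians by midpoint were 0.20 inside (4278 genes) and 0.69 outside (12707 genes). Without olfactory and vomeronasal receptor genes they were 0.26 and 0.69. Inside LADs and over 100 kb, where most of the potassium channel genes inside stand, the median was 0.53 for 16 of them and 0.57 for all 627 genes of that length. Up to 100 kb it was 0.44 for 12 potassium channel genes and 0.16 for all 3651 (0.20 without those receptors). The GC content had medians of 58% inside and 60% outside for the potassium channel genes, and 45% and 58.7% for all genes. None of these differences was tested.

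Sequences of 6 promoters are shown because they include both CpG-rich and CpG-poor windows on each side of the borders. Kcnd2 and Kcnh8 are long Kv genes inside LADs, Kcnj2 and Kcnj16 are neighbours in 1 LAD, and Kcnj4 and Kcng4 lie far outside. Each is written 5′ to 3′ on the strand of the gene, with every CpG in capitals.

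Kcnd2, inside, chr6:21215096-21215395, plus strand, 26 CpG: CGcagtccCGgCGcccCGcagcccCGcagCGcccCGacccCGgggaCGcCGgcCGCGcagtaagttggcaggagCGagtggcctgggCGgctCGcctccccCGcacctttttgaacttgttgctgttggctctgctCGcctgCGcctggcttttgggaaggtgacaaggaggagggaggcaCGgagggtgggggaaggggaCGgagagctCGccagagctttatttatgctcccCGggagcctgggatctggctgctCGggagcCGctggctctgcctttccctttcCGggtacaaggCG
Kcnh8, inside, chr17:52602459-52602758, plus strand, 21 CpG: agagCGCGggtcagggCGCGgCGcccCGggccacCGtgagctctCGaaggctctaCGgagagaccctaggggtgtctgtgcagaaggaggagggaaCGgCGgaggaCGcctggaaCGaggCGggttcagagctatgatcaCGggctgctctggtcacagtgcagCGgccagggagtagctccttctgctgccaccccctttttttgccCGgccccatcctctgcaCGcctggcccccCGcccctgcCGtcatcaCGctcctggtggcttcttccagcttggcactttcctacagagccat
Kcnj2, inside, chr11:111065914-111066213, plus strand, 18 CpG: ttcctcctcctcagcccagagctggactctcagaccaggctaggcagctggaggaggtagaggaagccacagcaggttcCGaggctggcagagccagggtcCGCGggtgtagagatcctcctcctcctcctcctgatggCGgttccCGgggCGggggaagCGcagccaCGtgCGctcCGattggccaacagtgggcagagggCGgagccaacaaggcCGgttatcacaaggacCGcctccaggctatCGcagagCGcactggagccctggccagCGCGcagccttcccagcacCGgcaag
Kcnj16, inside, chr11:110967783-110968082, plus strand, 3 CpG: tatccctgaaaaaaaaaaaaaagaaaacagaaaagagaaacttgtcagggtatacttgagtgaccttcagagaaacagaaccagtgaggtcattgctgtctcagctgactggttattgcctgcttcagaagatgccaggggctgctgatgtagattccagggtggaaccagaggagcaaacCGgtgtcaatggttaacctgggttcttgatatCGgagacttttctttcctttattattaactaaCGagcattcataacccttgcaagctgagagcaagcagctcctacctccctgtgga
Kcnj4, outside, chr15:79505192-79505491, minus strand, 41 CpG: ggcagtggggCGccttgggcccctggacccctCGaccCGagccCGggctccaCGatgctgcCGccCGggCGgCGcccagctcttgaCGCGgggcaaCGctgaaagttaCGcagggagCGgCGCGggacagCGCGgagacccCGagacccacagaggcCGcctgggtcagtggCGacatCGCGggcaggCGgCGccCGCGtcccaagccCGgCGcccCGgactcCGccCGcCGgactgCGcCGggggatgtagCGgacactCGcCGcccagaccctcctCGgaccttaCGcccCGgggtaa
Kcng4, outside, chr8:119635631-119635930, minus strand, 4 CpG: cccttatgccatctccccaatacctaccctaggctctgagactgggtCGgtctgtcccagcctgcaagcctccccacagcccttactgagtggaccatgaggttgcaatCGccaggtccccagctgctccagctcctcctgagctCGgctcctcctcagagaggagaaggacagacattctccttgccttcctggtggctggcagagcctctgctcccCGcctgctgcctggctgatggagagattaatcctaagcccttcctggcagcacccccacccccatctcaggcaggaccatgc

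The neighbours Kcnj2 and Kcnj16 had ratios of 0.54 and 0.20. Kcnj4 had a ratio of 0.95 and Kcng4 one of 0.15. Kcnd2 and Kcnh8 had ratios of 0.74 and 0.64. The letters GGGCGG were searched on both strands and overlap CpG by 1 dinucleotide. They stood in 15 of 28 potassium channel promoters with the gene midpoint inside (53.6%) and in 19 of 38 with it outside (50.0%). Kcnh1, Kcnma1 and Kcns3, with only the midpoint inside, had these letters. Kcna10 and Kcnip1, with only the start site inside, lacked them. Split by start site instead, the order of these shares reverses. Over the same windows of all protein-coding genes, 1 per gene, the shares by midpoint were 19.1% inside and 55.0% outside, and 46.0% of 16985 together. Over all 32851 windows of the table the share was 35.7%. Among genes over 100 kb in LADs it was 56.2% for the potassium channel genes (9 of 16) and 48.6% for all genes. For genes of all lengths in LADs, without the receptor genes, it was 25.8%. The letters TATAAA, also on both strands, stood in 1 promoter inside (Kcnj15) and 2 outside (Kcnj9 and Kcnj13), where all genes had 25.1% inside, 9.54% outside and 13.5% together. Over 100 kb and in LADs it stood in 0 of 16 potassium channel promoters and in 8.77% of all. A match is a run of letters and no evidence of a bound factor.

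**Figure D4:**
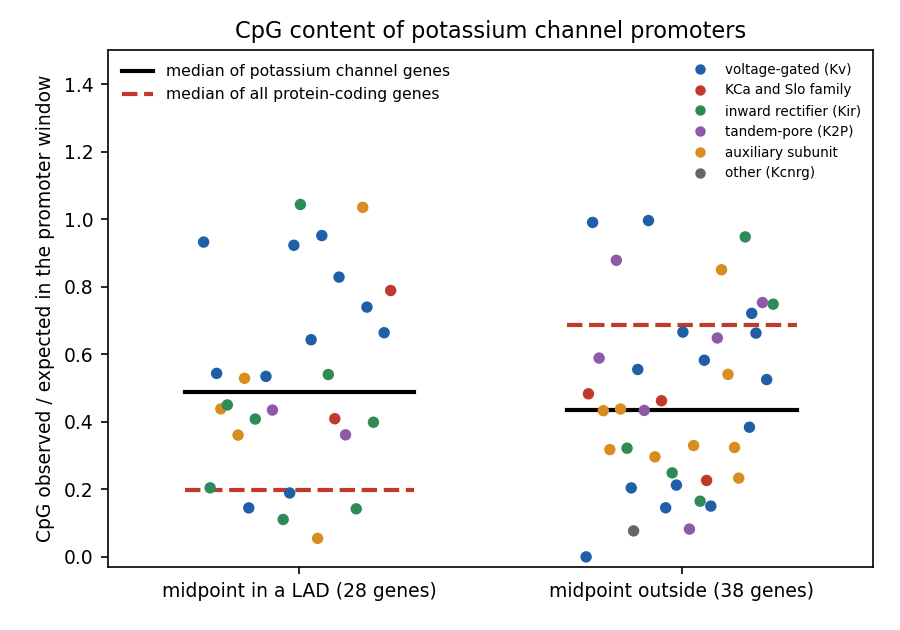
CpG observed over expected in the 300-base promoter window of 66 potassium channel genes, 28 with their midpoint in a LAD and 38 outside. Points are genes coloured by class, spread sideways for legibility. The solid bars are their medians (0.49 and 0.44) and the dashed bars the medians of all protein-coding genes (0.20 and 0.69).

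Of the 39 Kv genes placed, 14 (35.9%; all genes, 24.6%) lay in a LAD. All 10 Kv genes over 100 kb were among them (all genes, 34.4%), and 4 of the 29 shorter ones (all genes, 23.4%). The Kcnh genes, named for the ether-a-go-go channel of the fly, divided evenly: Kcnh1, Kcnh5, Kcnh7 and Kcnh8 lay inside and measure 280.1 to 490.9 kb, whereas Kcnh2, Kcnh3, Kcnh4 and Kcnh6 lay outside and measure 18.3 to 32.1 kb. Kcnh8 (chromosome 17, 52602709 to 52979194) was the deepest Kv gene, 663 kb from the border of a LAD of 3897 kb (49556432 to 53453919) that held 8 protein-coding genes. Kcnh2, which encodes the rapid delayed rectifier of the heart, lay 1228 kb outside. Kcnh4 (chromosome 11, 100740378 to 100760115) and Kcnh3 (chromosome 15, 99224517 to 99242818) were among the 5 genes farthest from any LAD, at 6920 kb and 2993 kb. By midpoint, the members of this subfamily thus lay in LADs or over 1 Mb away from one. A border crossed Kcnh1 and Kcnh7.

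Of the Kcnq genes, which include those of the M-current, a slow brake on neuronal firing, 2 of the 4 placed lay inside (all genes, 24.6%), both over 100 kb long (all genes of that length, 34.4%). Kcnq5 (chromosome 1, 21398399 to 21962650) lay 473.1 kb deep in a LAD of 1925 kb (21207434 to 23132427), and Kcnq3 lay 308 kb deep. Both genes encode M-current subunits. Kcnq1, of heart and epithelia, lay 417.3 kb beyond the last LAD of chromosome 7.

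The fast inactivating Kcnd channels had Kcnd2 and Kcnd3 inside, 454.5 and 90.3 kb deep, and the 14.5 kb gene Kcnd1 on X outside by 500.8 kb. The delayed rectifier Kcnb2 (436.8 kb long) lay 274.6 kb deep. Of the Kcnc genes of fast-spiking neurons, Kcnc2 (196.4 kb long) lay 337.4 kb deep, and the shorter genes Kcnc1 and Kcnc4 lay 762.5 and 266 kb outside. Of the 10 silent Kv subunits, which form no channel alone and modify Kcnb channels, 2 lay inside, a share near that of all genes (24.6%, or 19.8% without olfactory and vomeronasal receptors). These were Kcns3, with its midpoint 4.52 kb inside, the nearest to a border of all 32, and Kcnv1, a 19.8 kb gene that lay 247.5 kb deep and shared a LAD of 5147 kb with 1 other protein-coding gene. Kcnf1 and all 4 Kcng genes lay outside, and Kcng4 (chromosome 8, 119623854 to 119635680) was 2772 kb from a border.

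The Kcna genes, relatives of the Shaker channel of the fly, form 2 clusters of 3 genes that differed in placement. On chromosome 6, Kcna5, Kcna1 and Kcna6 lay 1880 to 2070.2 kb outside, in a LAD-free interval of 4255 kb with 77 protein-coding genes. On chromosome 3, Kcna3 and Kcna2 lay 146.1 and 80.3 kb deep in a LAD of 1185 kb (105998275 to 107183271). The LAD ended at the third gene of that cluster, Kcna10 (107183143 to 107195721), whose midpoint was 6.16 kb outside, the nearest of all genes outside. Its start site was 0.128 kb inside, which is less than the 2.5 kb step of the borders, so its side is not resolved. Kcna4, an A-type channel gene on chromosome 2 (107290589 to 107326804), was the only protein-coding gene with its midpoint in a LAD-free interval of 207.5 kb, with LADs on both sides.

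Of the 8 KCa and Slo genes, 3 lay inside (37.5%; all genes, 24.6%), and by start site 1 of the 5 with a promoter window did. Kcnt2 (chromosome 1, 140245657 to 140614045), a sodium-activated channel, was 960.3 kb deep in a LAD of 4112 kb (139469560 to 143582046), whereas its relative Kcnt1 lay 1621 kb outside. Kcnn2 (chromosome 18, 45268750 to 45685887), a small-conductance channel of neurons, was 555.9 kb deep and the only protein-coding gene with its midpoint in a LAD of 1172 kb (44921375 to 46093870). Kcnn1, Kcnn3 and Kcnn4 lay 322.5 to 1321 kb outside. Kcnu1, a channel of sperm, lay 1515 kb outside. Kcnma1, the large-conductance BK channel, counted as inside only through a LAD of 87.5 kb around its midpoint, which is described with the crossed genes.

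The Kir genes had the highest share of the classes, with 8 of 15 (53.3%; all genes, 24.6%), and here short genes lay inside as well: 6 of the 13 Kir genes up to 100 kb did, against 7 of the 55 other potassium channel genes of that length and 23.4% of all genes. Kcnj3 (chromosome 2, 55411798 to 55598145), a subunit of the G protein-gated channels that slow the heart and quiet neurons, was the deepest of all potassium channel genes. It lay 1565 kb from the border of a LAD of 3807 kb (53262243 to 57069730). Of the G protein-gated subunits, Kcnj5 and Kcnj6 also lay inside, 221.9 and 34.5 kb deep, and Kcnj9 lay 229.5 kb outside.

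Of the 8 Kir genes inside, 6 came in pairs that shared a LAD. Kcnj2, the strong rectifier of heart and skeletal muscle, and Kcnj16, which forms channels together with Kcnj10, have midpoints 73.5 kb apart on chromosome 11 (111066164 to 111076825 and 110968033 to 111027968). They lay 1374 and 1300.2 kb deep in a LAD of 3062 kb (109697827 to 112760316) with 10 protein-coding genes. Kcnj5 and Kcnj1, the latter the potassium secretory channel of the kidney, have midpoints 56.3 kb apart on chromosome 9 and lay in a LAD of 622.5 kb (31928984 to 32551481). Kcnj6 and Kcnj15 lay at opposite ends of a LAD of 455 kb on chromosome 16 (94836868 to 95291865), with midpoints 407.6 kb apart, and were the only protein-coding genes with a midpoint in it. Members of a pair share their LAD, so these are 3 domains, not 6 separate placements.

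The pores of the channels closed by ATP were on different sides. Kcnj8, the pore of the vascular type, lay 159 kb deep in a LAD of 720 kb on chromosome 6 (142409197 to 143129194), which also held Abcc9, the regulatory subunit of that channel. Kcnj11, the pore of the pancreatic beta cell type, lay 1081 kb outside on chromosome 7, and its regulatory subunit Abcc8 lay 1038 kb outside. Each pore gene and its regulatory gene are neighbours, so each pair is 1 placement. Kcnj10, the main Kir channel of glia, lay with Kcnj9 in a LAD-free interval of 550 kb, their midpoints 32.7 kb apart. Kcnj4 (chromosome 15, 79480226 to 79512511) was the farthest of all members from a LAD, at 7000.4 kb.

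Of the 11 K2P genes placed, 2 (18.2%) lay in a LAD, a share near that of all genes without olfactory and vomeronasal receptors (19.8%). These were the long genes Kcnk2 and Kcnk10, close relatives that encode channels opened by stretch and fatty acids, 321.5 and 113.6 kb deep. Of the 9 K2P genes up to 100 kb, 0 lay inside (all genes of that length, 23.4%). Of these, Kcnk9, an acid-sensitive leak channel, was nearest, 29.3 kb from a border at the edge of a LAD-free interval of 14065 kb. Kcnk5 and Kcnk16, with midpoints 104.4 kb apart, lay 514.7 and 619.1 kb outside. Kcnk18 (chromosome 19, 59219648 to 59237370) lay 4058 kb beyond the last LAD of its chromosome.

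Of the 16 auxiliary subunits, 5 lay inside (31.2%; all genes, 24.6%), and 3 did with every LAD shortened by 50 kb at each end. Among the Kcnmb genes, beta subunits of the BK channel, 3 of 4 did: Kcnmb1, Kcnmb2 and Kcnmb4 were 20.2, 252.5 and 52.4 kb deep. Kcnmb3 has its midpoint 433 kb from that of Kcnmb2 and lay 180.5 kb outside, in a LAD-free interval of 445 kb. Of the Kcnip genes, Kcnip4 (chromosome 5, 48389503 to 49525122) is the longest potassium channel gene, with 1136 kb, and lay 505.2 kb deep in a LAD of 1475 kb (48452159 to 49927154). Kcnip2 and Kcnip3 lay 2194 and 2450 kb outside. Of the Kcne genes, small proteins with a single membrane span, Kcne4 lay 38.7 kb deep. The neighbours Kcne1 and Kcne2 lay 1683 and 1626 kb outside, and Kcne3 and Kcne1l 2349 and 1518 kb outside. The Kcnab genes lay outside, and so did Kcnrg, a soluble protein that hinders channel assembly, by 1494 kb.

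A LAD border ran through 10 of the 90 genes (11.1%), against 3.47% of all protein-coding genes. Of the 22 genes over 100 kb, 7 were crossed (31.8%), where the share over all genes over 100 kb was 16.8%. The potassium channel genes are longer within this class. Over 200 kb, 7 of 17 were crossed (41.2%), against 25.2% of all genes. This difference was not tested. Of the 35 genes of 20 to 100 kb, Kcns3 and Kcnj15 were crossed (all genes, 3.74%), and of the 33 under 20 kb Kcna10 was (all genes, 0.502%). Kcnip4 was covered over 94.5% of its length, and Kcnh7, a brain channel of the Kcnh subfamily, over 79.4%. In both genes the uncovered part was the 3′ end. Kcnh1 was covered over 98.4%, with only its 5′ end outside. Its start site lay 3.62 kb from the border, a distance near the step of the borders. Kcnip1 was covered over 12.4%, all of it at the 5′ end, and its start site lay 45.1 kb inside. The whole of Kcnmb1, which lies within Kcnip1, was in that LAD (33948067 to 34563064 on chromosome 11).

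Kcnma1 (chromosome 14, 23292288 to 24005110) was the only potassium channel gene to meet 2 LADs. It measures 712.8 kb and was covered over 26.9%, by an inner LAD of 87.5 kb (23636247 to 23723746) and by the end of a LAD of 450 kb (22946249 to 23396247). Its start site lay 280.5 kb outside, and without LADs under 100 kb its midpoint was 252.5 kb outside. The other crossed genes were Kcnj6, Kcnd3, Kcns3, Kcnj15 and Kcna10, covered over 63.6%, 90.7%, 57.4%, 80.3% and 1.03%.

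**Figure D5:**
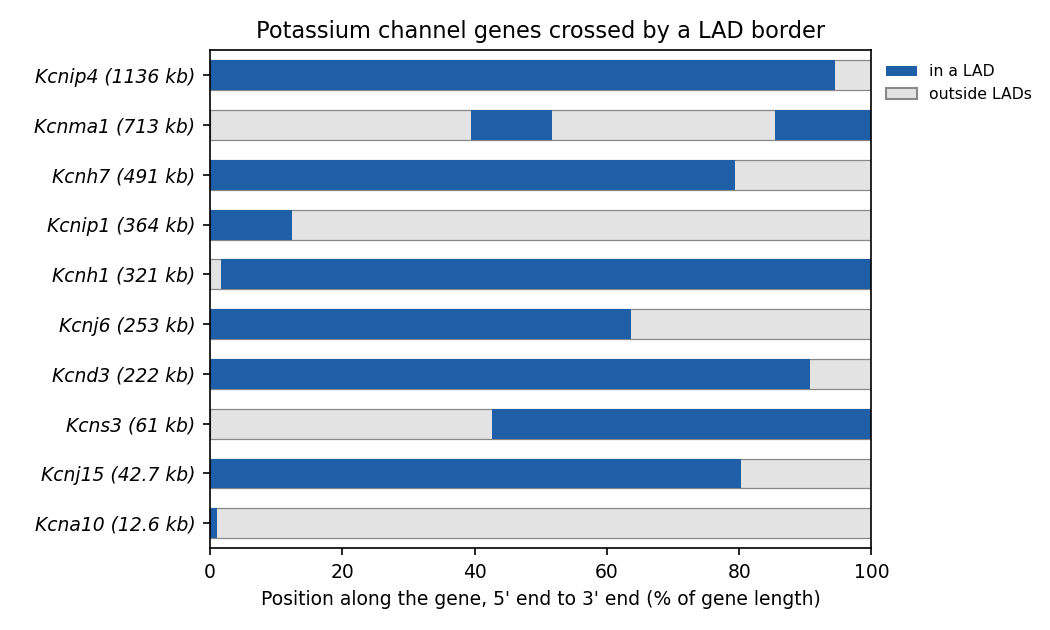
The 10 potassium channel genes crossed by a LAD border, each drawn from its 5′ to its 3′ end in percent of its length, with the part in a LAD in blue. The 5′ end is outside in Kcnma1, Kcnh1 and Kcns3 and inside in the other 7 genes.

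By start site, 27 of 66 genes with a promoter window (40.9%) lay in a LAD, against 24.6% of all genes with one. Start and midpoint were both inside in 25 genes and both outside in 36. Kcnh1, Kcnma1 and Kcns3 had only the midpoint inside, and Kcna10 and Kcnip1 only the start site. Of the 22 genes over 100 kb, 19 had a start site in the table, and 78.9% of these start sites lay in a LAD, where the share over all genes of that length was 29.1%.

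The 28 LADs that held them contained 1 to 14 protein-coding genes, with a median of 4, and in 6 the channel gene was alone. Per Mb of the LAD, the median over the 32 genes was 3.27 protein-coding genes, against 11.7 over all genes in LADs and 6.35 without olfactory and vomeronasal receptor genes. Outside, the medians were 18.2 for the potassium channel genes and 16.1 for all genes, per Mb of the LAD-free interval. The LAD around a channel gene had a median length of 1170 kb over the 32 genes (range 87.5 to 5147 kb). For all genes in LADs the median was 1785 kb, or 1625 kb without those receptor genes. Outside, 6 of 58 genes (10.3%) lay in LAD-free intervals under 1 Mb, namely Kcna4, Kcnv2, Kcnmb3, Kcnip1, Kcnj9 and Kcnj10, against 15.7% of all genes outside.

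Genes with other names that act with these channels were placed in the same way. Of a list of 16, 6 lay in a LAD (37.5%; all genes, 24.6%). Dpp6 and Dpp10, which encode membrane partners of the Kcnd channels, lay 332.3 and 1283 kb deep and measure 910.1 and 1514 kb. Also inside were Abcc9, 236.1 kb deep, and Lrrc38 and Lrrc55, which encode gamma subunits of the BK channel, 16.1 and 81.3 kb deep. Genes outside included Abcc8, Amigo1, Lrrc26, Lrrc52, Tmem175, Tmem38a and Tmem38b. A border ran through Lrrc52, with its midpoint 0.744 kb outside, which is less than the step of the borders.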

How the data were processed

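The authors deposited 1 list of LADs, whose values are the positions, in base pairs, at which each domain begins and ends. The deposited score column held 0 in every line and was not used. Bowtie2 and mm10 are named in the submitters' processing notes. The domain caller, its threshold and the use of IgG are not given in the sources used here. Every domain was, to within 125 bp, a whole number of 2.5 kb steps long, so borders are no finer than that step, and the smallest gap was 52.5 kb. Start positions were converted to count from 1.

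Gene positions and promoter windows came from RefSeq tables of GRCm38.p6, the build also called mm10. Genes were placed by midpoint between the first and last LAD of their chromosome, with pandas 2.3.3 and NumPy 2.4.6 in Python 3.11.15. The placement was tested on simulated data. Of the gene models, strand is known only for those with a promoter window. Subfamilies follow the symbol. No count, share or median was tested, since the list has no values per library and the members and lists were chosen with earlier results of these data known. Named are all genes inside LADs, the 8 deepest, the 5 farthest outside, those crossed by a border (the 5 longest in detail), neighbours within 200 kb, genes sharing a LAD, and the partners inside. A few of these genes are not reported here. Further members outside were named, to complete each subfamily, after their values were seen. The planned comparison of protein sequences was not run. Placements were repeated under 10 alternatives, and the length limit and the choice of promoter window were varied.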

Additional observations from a re-analysis of the deposited data

How the results depend on the processing

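Of 108 summary values recomputed, 94 stayed within 1.5 times (counts and medians) or within the 95% exact binomial interval (shares), and 14 moved. The number of potassium channel genes in LADs ran from 24 (whole gene in 1 LAD) to 34 (any overlap), and their share from 26.7% to 40.9%. The share of all protein-coding genes, whose interval is narrow, moved to 22.5% for whole genes, 26.0% for any overlap, 21.5% with LADs of at least 500 kb, 28.3% with LADs joined at 250 kb, 21.3% with LADs shortened by 50 kb at each end, 23.8% over all placed genes and 23.7% on autosomes. By start site, the share moved to 28.6% under 20 kb and 29.1% over 100 kb for all genes, and the count to 1 of 5 KCa genes and 13 of 32 glutamate and GABA receptor genes, with fewer genes placed. K2P genes fell from 2 to 1 with LADs of at least 500 kb, and auxiliary subunits from 5 to 3 with shortened LADs. The 200 kb length limit, chosen after seeing the data, moved the share of all genes to 50.5%. With the window of highest CpG ratio, chosen likewise, the potassium channel CpG medians by midpoint were 0.56 inside and 0.51 outside. With the most downstream window, also chosen after seeing the data, they were 0.54 and 0.46.

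Of 32 genes inside, 22 kept their side under each of the up to 6 alternatives that could be tried, as did 59 of 62 outside. Requiring the whole gene, LADs of at least 100 kb or shortened LADs can only move genes out. Any overlap and joined LADs can only move them in. The counts for genes inside and outside are therefore not comparable. For the 25 genes without a promoter window the start site could not be tried. By start site, Kcna10 (0.128 kb) and Kcnip1 (45.1 kb) were inside, and the signed distances of Kcnh1 (-3.62 kb), Kcnma1 (-280.5 kb) and Kcns3 (-25.6 kb) put them outside. With LADs shortened, Kcne4 (-11.3 kb), Kcnj15 (-37.0 kb), Kcnj6 (-15.5 kb), Kcnma1 (-302.5 kb), Kcnmb1 (-29.8 kb) and Kcns3 (-45.5 kb) were outside. Kcnma1 was outside without LADs under 100 kb (-252.5 kb), and Kcna4 was inside (550.9 kb) with LADs joined at 250 kb.

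No paired analysis was possible because the list is merged and has no values per replicate, so leaving out a Lamin B1 replicate was not run either.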

Other observations

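The RefSeq table also holds 4 long non-coding RNA genes with a Kcn symbol. Kcnd3os, which runs across the start of Kcnd3, lay 189.8 kb deep in the same LAD as Kcnd3. Kcnmb4os1 and Kcnmb4os2, at the 2 ends of Kcnmb4, lay 78.5 and 24.1 kb deep in the LAD of that gene. Kcnq1ot1, the long transcript within Kcnq1 that is known for imprinting of that region, lay 405.2 kb beyond the last LAD of chromosome 7, as Kcnq1 does. Each thus lay on the side of its host or neighbour, with which it shares its position.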
